A study of Mus musculus with 21 samples.

Results

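The response of the mouse lung to a low dose of vitamin E acetate was set against its response to a low dose of propylene glycol, gene by gene, as a difference of effects. For each gene the log2 change from 10% ethanol to VEA 3.12 (the VEA arm) was reduced by the log2 change from saline to PG 826 (the PG arm). A positive difference means that the VEA arm lay above the PG arm, and a negative one that it lay below. The 4 groups held 12 of the 21 libraries of the series, with 3 libraries in each group, and 14727 genes were tested. The rule of the comparison uses the groups alone and no measured value, but the comparison was chosen with earlier results of these data known.

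All animals were C57BL/6 mice. Each was given 50 µL into the trachea daily over 14 days. They were killed on day 15, the airspaces were washed by bronchoalveolar lavage, and RNA came from the remaining lung tissue. The saline group (libraries 6, 8 and 10) was the control for propylene glycol (PG), a carrier liquid of e-cigarettes, which was given at 826 (libraries 22, 23 and 25). The 10% ethanol group (libraries 12, 13 and 14) was the control for vitamin E acetate (VEA), an oily ester used as a thickener, which was given at 3.12 (libraries 56, 57 and 59). The dose unit is uncertain, since the sample labels state mg/kg and the series description mg/mL, and doses are therefore printed without a unit. These were the lowest doses of each agent in the series, and they were not matched to each other. The labels do not say in which liquid VEA was given, and they give neither sex, age nor hour of killing. Agent, dose and control liquid therefore differed together between the arms and cannot be told apart. Library numbers were taken as animals, and if they are not separate animals the p-values measure only the spread between these libraries.

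As background, the lung lining is guarded by alveolar macrophages, which clear lipid and debris, and by an epithelium that secretes surfactant, mucus and antimicrobial proteins. Injured or stimulated epithelium and macrophages release chemokines: CXC chemokines such as Cxcl1 and Cxcl5 draw neutrophils, while CC chemokines draw monocytes, dendritic cells and lymphocytes. Many of these genes are switched on by the transcription factor NF-kB. The lung also keeps a circadian clock, in which the proteins CLOCK and BMAL1 drive Per, Nr1d and Dbp genes through E-box sites. Several clock genes, Per1 among them, also answer to glucocorticoid hormones, as do Fkbp5 and Klf9.

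The 12 libraries held 9133120 to 11273751 counts. A level of 5 CPM (library-scaled counts, the unit of all levels) stood for 41.1 to 57.5 counts, and 15015 to 15918 genes had at least 1 count. The ribosomal transcript Rn45s made up 18.5% to 25.4% of a library and haemoglobin made up 5.23% to 13.8%. Saline 8 (15015) and ethanol 13 (15157) had the fewest genes detected, and saline 8 had the highest haemoglobin share. Without these 2 libraries, 23 genes were higher and 2 lower in the difference, in place of 60 and 11. Without saline 6 alone the counts were 123 and 68. The tissue markers were abundant: type II cell Sftpc stood at 15804 to 24473 CPM, club cell Scgb1a1 at 47441 to 62601, type I cell Ager at 2517 to 3007 and endothelial Cdh5 at 139.5 to 216 in the saline lungs. Levels below are CPM scaled by TMM, listed by library in the order given above, with means ± SD (n = 3). Changes are log2 fold changes of the fitted model ± SE, with Benjamini-Hochberg adjusted p from edgeR's quasi-likelihood test over all genes tested. Genes that passed had an adjusted p below 0.05.

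Promoter windows of 300 bases from RefSeq (GRCm38.p6) were read for the genes that passed, of which 48 of 71 matched by symbol. They are shown for the gene with the strongest call among the neutrophil chemokines and for the clock gene with the largest negative difference. In the Cxcl1 window (chr5:90890995-90891294, plus strand) capitals mark 2 overlapping matches to the NF-kB type motif. In the Per1 window (chr11:69098699-69098998, plus strand) capitals mark the E-box CACGTG, the site of CLOCK and BMAL1.
Cxcl1: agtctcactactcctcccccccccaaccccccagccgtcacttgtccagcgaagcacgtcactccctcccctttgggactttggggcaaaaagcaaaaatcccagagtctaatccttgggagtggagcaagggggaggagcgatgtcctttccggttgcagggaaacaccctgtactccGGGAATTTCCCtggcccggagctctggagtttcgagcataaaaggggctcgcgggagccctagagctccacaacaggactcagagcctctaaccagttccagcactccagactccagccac
Per1: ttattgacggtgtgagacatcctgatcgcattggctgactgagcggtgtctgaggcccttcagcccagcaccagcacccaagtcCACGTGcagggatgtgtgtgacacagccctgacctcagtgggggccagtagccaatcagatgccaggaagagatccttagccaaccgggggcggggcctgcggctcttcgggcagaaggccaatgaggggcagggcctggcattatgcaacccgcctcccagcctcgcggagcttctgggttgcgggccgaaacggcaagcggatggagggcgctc
Both strands were searched. The NF-kB type motif was found for 1.63% of the 27025 genes with a window, for 1 of the 41 matched genes that were higher in the difference (Cxcl1) and for 0 of the 7 that were lower. CACGTG was found for 8.09% of all genes, for 3 of the 41 higher genes (AA467197, Gdf15 and Slpi) and for 1 of the 7 lower genes (Per1). The letters GCGTG, the core of the xenobiotic response element, were found for 35.2% of all genes, for 14 of the 41 higher genes and for 6 of the 7 lower genes (Alas1, Dbp, Klf9, Nr1d2, Per1 and Tspan2). The antioxidant response element TGACNNNGC was found for 14.0% of all genes, 3 of the 41 and 2 of the 7, and the glucocorticoid response element for 3 of the 27025 genes and for 0 of the 48. A match is a description of the letters in the window.

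In the difference of effects 60 genes were higher and 11 were lower, which is 0.407% and 0.0747% of the genes tested. Over all tested genes the median difference was -0.01, with 7235 positive and 7492 negative. An unadjusted p below 0.05 was found for 1571 genes, 825 higher and 746 lower. The higher genes included the chemokines Cxcl1, Cxcl5, Cxcl16, Ccl3, Ccl6, Ccl7, Ccl9 and Ccl17, the acute phase protein Saa3 and the transporters Slc26a4 and Slc39a2. The lower genes included the clock genes Per1, Dbp and Nr1d2 and the transcription factor Klf9. Among the 60 higher genes, 58 also passed as higher in the VEA arm (background 3.42% of genes), 1 passed in the PG arm as lower (Tff2) and 1 passed in neither (Basp1). Their median was 1.88 in the difference, 1.68 in the VEA arm and -0.12 in the PG arm, so most of the difference lay in the VEA arm. Among the 11 lower genes, 4 passed as higher in the PG arm (background 0.0951%), 2 passed as lower in the VEA arm (background 2.09%) and 5 passed in neither. Their median was -1.07 in the difference, -0.40 in the VEA arm and 0.67 in the PG arm, and all 11 had a PG arm above 0 and a VEA arm below 0. As the members were chosen by the difference, these splits describe them and are no test.

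**Figure D1:**
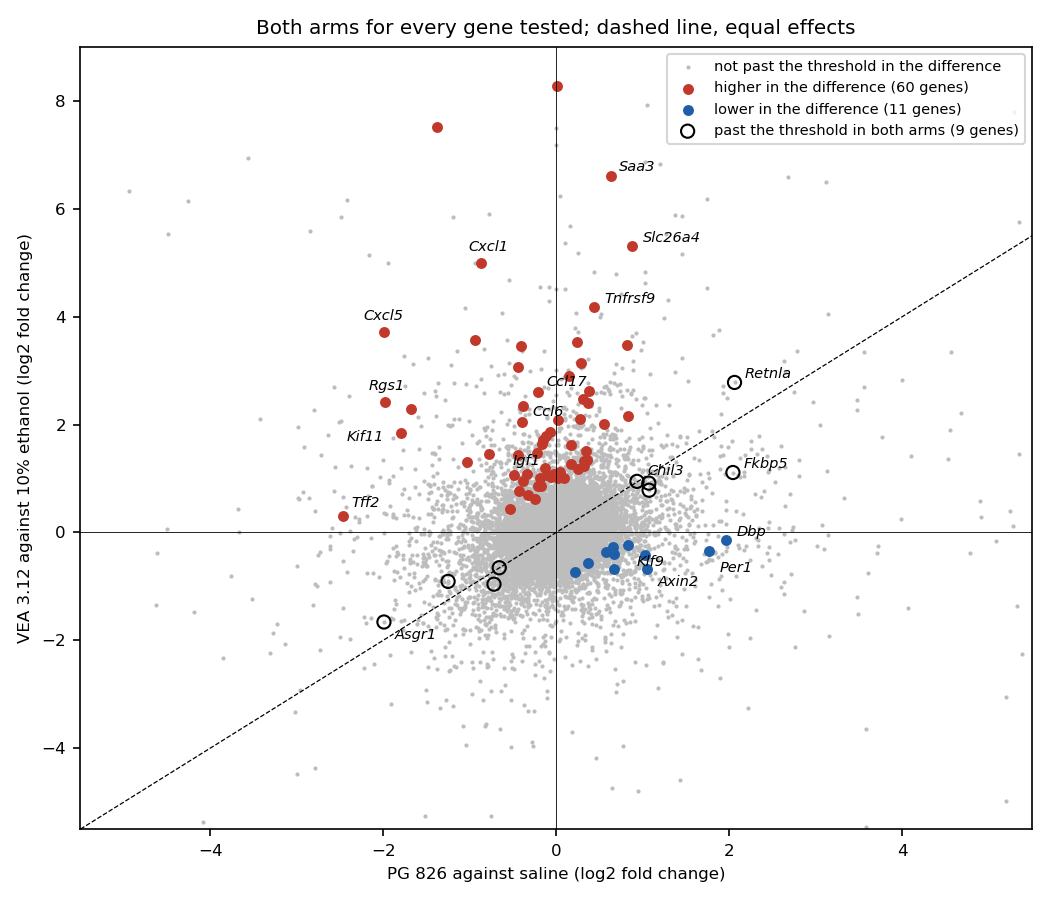
Each point is a tested gene, with the log2 change from saline to PG 826 on the horizontal axis and from 10% ethanol to VEA 3.12 on the vertical axis. Genes higher in the difference (60) lie above the dashed line of equal effects, 35 with a PG arm below 0 and 25 above it. Their PG arms reach away from 0 in some, as for Cxcl5 (-1.99) and Clec4n (0.83). Genes lower in the difference (11) lie to the right of 0 and below 0. Of all genes, 22 lie outside the plotted range.

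The arms differed in how many genes passed. In the VEA arm 504 genes were higher and 308 lower, and in the PG arm 14 were higher and 6 lower (0.0407% of genes). Of the 812 genes of the VEA arm, 60 passed in the difference and 752 did not. The SE of a difference of effects is larger than that of an arm, with a median of 0.31 against 0.22 in both arms over the 10591 genes that averaged 5 CPM or more, and a gene that passed in 1 arm only is thus not shown to differ between the arms. The sign was the same in both arms for 604 of the 812 genes (74.4%) against 57.0% of all genes. Across all 14727 genes Pearson's r between the arms, which share no library, was 0.143, and across the 10591 genes of at least 5 CPM it was 0.304. Genes are not independent replicates, so no p is given.

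Each call in the difference was refitted in 19 ways: with 7 changes of scaling, test, filter or libraries, and without each of the 12 libraries in turn. Of the 71 genes, 14 passed in all 19 fits: Cxcl1, Cxcl5, Cxcl16, Ccl6, Ccl17, Tnfrsf9, Bcl2a1a, Bcl2a1b, Bcl2a1d, Cd83, Mgl2, Igf1, Cotl1 and Klf9. A further 13 passed in all but 1. None of the 71 changed sign. Of them genes, 37 were lost in limma-voom, 48 without saline 8 and ethanol 13 together, and 14 in a fit of the 4 groups alone. Where leaving out a single library ended a call in the difference, the libraries are named beside the gene. In the VEA arm 51 of the 58 higher genes that passed did so in all 19 fits. The other 7 (Kif11, Casc5, Rgs1, Ptpn7, E2f5, Itpa and 1810022K09Rik) lost that call without at least 1 single library. The PG arm was less stable, with 4 of its 20 genes past in all 19 fits (Dbp, Fkbp5, Chil3 and Asgr1) and 15 lost without at least 1 single library.

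The neutrophil-attracting chemokines Cxcl1 and Cxcl5 were much higher in the VEA 3.12 lungs and showed no such rise in the PG arm. Cxcl1 (chr5:90891241-90893115), a main neutrophil attractant of the mouse, stood at 1.38, 2.80 and 0.876 CPM in the saline lungs and at 0.657, 0.696 and 1.35 in the PG 826 lungs. It stood at 0.220, 0.432 and 0.863 in the 10% ethanol lungs and at 18.4, 14.5 and 16.7 in the VEA 3.12 lungs. All 3 VEA lungs were above the other 9, and the saline and PG lungs overlapped. The VEA arm was 4.99 ± 0.49, a fitted 31.9-fold rise, the PG arm was -0.87 ± 0.51, and the difference was 5.86 ± 0.71 (adjusted p = 7.75e-06). Cxcl5 (chr5:90759360-90761624), a chemokine of the alveolar epithelium that acts on the same receptor, stood at 6.31, 12.1 and 4.38 CPM in saline and 3.62, 1.57 and 0.521 in PG 826 lungs. It stood at 7.57, 2.05 and 1.83 in ethanol and 54.4, 40.3 and 55.6 in VEA 3.12 lungs. The groups separated in both arms, upward for VEA and downward for PG. The VEA arm was 3.71 ± 0.55 (adjusted p = 0.000804), the PG arm was -1.99 ± 0.62 (adjusted p = 0.305), and the difference was 5.71 ± 0.82 (adjusted p = 0.00481). Of the 9 tested neutrophil chemokines and receptors, these 2 passed in the difference, 4 passed as higher in the VEA arm and 0 passed in the PG arm. The summed level of this list was 3268 to 3830 CPM in VEA 3.12 and 2714 to 3261 in ethanol lungs. It was 3183 to 3461 in PG 826 and 2482 to 3609 in saline lungs, so the VEA lungs overlapped both of these groups. Summed neutrophil marker levels were 246 to 520.0 CPM in saline, 320.3 to 568 in PG 826, 320.4 to 586 in ethanol and 561 to 739.5 in VEA 3.12 lungs. Of the 12 tested neutrophil markers, 1 passed in the difference (Mmp8), and their part in the chemokine result was not tested.

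CC chemokines were the gene list with the highest median difference, 2.22 over 14 tested members, against -0.01 over all genes. Of these, 5 passed in the difference, all higher: Ccl17, Ccl6, Ccl9, Ccl7 and Ccl3. In the VEA arm 8 members rose, and in the PG arm 0 passed. Ccl17 (chr8:94810453-94812036), a dendritic cell and macrophage product that draws Th2 lymphocytes, stood at 13.5, 9.74 and 7.98 CPM in saline, 6.68, 11.3 and 8.96 in PG 826, 11.3, 14.7 and 11.3 in ethanol and 81.8, 60.8 and 83.8 in VEA 3.12 lungs. The VEA lungs stood apart from the other 9. Ccl17 was the single gene of 7 tested type 2 and eosinophil genes to pass in the difference, and the median of that list was -0.77, opposite in sign to Ccl17. For Ccl17 the VEA arm was 2.60 ± 0.22, the PG arm -0.21 ± 0.23 and the difference 2.81 ± 0.32 (adjusted p = 1.5e-06). Ccl6 (chr11:83587882-83593087), a macrophage chemokine of rodents, was the most abundant, at 323, 540.3 and 512 CPM in saline and 594, 598 and 508 in PG 826 lungs. It stood at 357, 524 and 488 in ethanol and 2405, 2366 and 2803 in VEA 3.12 lungs. The control and PG levels overlapped, and the VEA levels were several times above them. For Ccl6 the VEA arm was 2.47 ± 0.19, the PG arm 0.30 ± 0.18 and the difference 2.16 ± 0.26 (adjusted p = 8.82e-06). Ccl9, a related myeloid attractant, had means of 11.1 ± 2.81 CPM in ethanol and 58.8 ± 14.3 in VEA 3.12 lungs and a difference of 2.04 ± 0.35 (VEA arm 2.40, PG arm 0.37, adjusted p = 0.00187), which was lost in limma-voom only. Ccl7, a monocyte attractant, was low, with 0.616 ± 0.536 CPM in ethanol, 6.89 ± 1.28 in VEA 3.12 and 0.548 ± 0.285 in PG 826 lungs, and a difference of 3.87 ± 0.90 (VEA arm 3.46, PG arm -0.41, adjusted p = 0.0323). Its call was lost without saline 8, saline 10, ethanol 13, PG 22, PG 25, VEA 57 or VEA 59 (adjusted p 0.051 to 0.136). Cxcl16, a chemokine and scavenger receptor for oxidised lipid, had a smaller difference of 1.08 ± 0.19 (VEA arm 1.02, PG arm -0.06, adjusted p = 0.00187) with 57.2, 54.9 and 47.9 CPM in ethanol and 115, 100.4 and 109.9 in VEA 3.12 lungs.

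Ccl3 had too few counts in the controls for its fitted change to be read as a size. It had 1 count over the 3 ethanol lungs and 251 over the 3 VEA 3.12 lungs, a ratio of scaled levels of 240.2 with a 95% counting interval of 42.7 to 9525. Over the PG 826 lungs it had 9 counts and over the saline lungs 21, a ratio of 0.406 (95% counting interval 0.164 to 0.925). These intervals cover counting error only. Its call in the difference (adjusted p = 0.0362) was lost without saline 8, ethanol 12, ethanol 13, ethanol 14, PG 22, PG 25, VEA 57 or VEA 59 (adjusted p 0.0524 to 0.245). Ccl3 is a macrophage inflammatory protein. Rgs16, a brake on G-protein signalling from chemokine receptors, had 0 counts in the ethanol lungs and 113 in the VEA 3.12 lungs. With the ethanol group set at a floor of 3 counts, the ratio was 36.05. The lower 95% counting limit for 113 counts against 0 was 28.8. In the PG arm Rgs16 had 12 counts against 11 in saline, a ratio of 1.03 (0.417 to 2.58). Its call (adjusted p = 0.0162) was lost without saline 10 or ethanol 14 (adjusted p 0.0515 to 0.185).

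**Figure D2:**
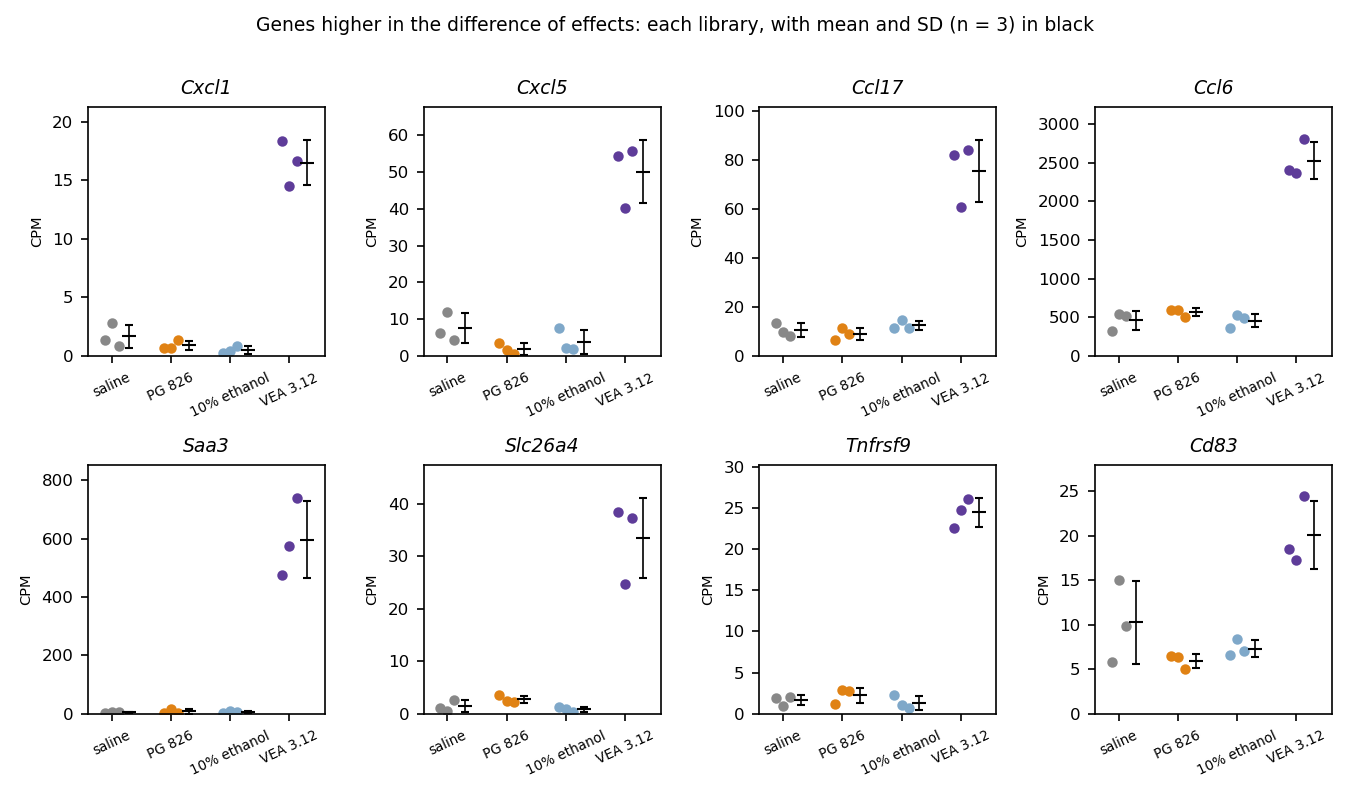
CPM of 8 genes higher in the difference, each library a point in its group of 3, with the mean and SD in black. In each panel the 3 VEA 3.12 lungs lie above the 3 ethanol lungs, as for Ccl6 with 2405, 2366 and 2803 CPM against 357, 524 and 488.

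Saa3, an acute phase protein made locally by lung epithelium and macrophages, was low in control and PG 826 lungs and abundant in VEA 3.12 lungs. It stood at 2.66, 7.55 and 5.84 CPM in saline, 3.29, 18.2 and 2.29 in PG 826, 2.52, 8.21 and 7.44 in ethanol and 476, 575 and 739 in VEA 3.12 lungs. PG library 23 (18.2) was above the other PG and saline lungs, and the 3 VEA lungs were far above all of them. Its VEA arm was 6.62 ± 0.73, the PG arm 0.63 ± 0.73 and the difference 5.98 ± 1.01 (adjusted p = 0.0148). The call was lost without saline 8 or saline 10 (adjusted p 0.0552 to 0.0648). Of the 15 tested acute phase genes Saa3 alone passed in the difference, 3 passed as higher in the VEA arm, and the median difference was 0.43 (0.50 with the gene that had no counts in a group set at its bound). Summed acute phase levels were 2505 to 2554 CPM in VEA 3.12 lungs against 936 to 1319.8 in ethanol, 968 to 1420.2 in PG 826 and 1042 to 1259 in saline lungs.

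Tnfrsf9, the Bcl2a1 copies, Gdf15 and Atf3 were higher in the difference, and their VEA arms passed while their PG arms did not. Tnfrsf9 (chr4:150914562-150946102), the costimulatory receptor 4-1BB, stood at 2.31, 1.08 and 0.647 CPM in ethanol and 22.5, 24.7 and 26.0 in VEA 3.12 lungs. In saline it stood at 1.97, 0.974 and 2.04 and in PG 826 lungs at 1.21, 2.87 and 2.71, which overlapped. Its VEA arm was 4.17 ± 0.35, the PG arm 0.43 ± 0.38 and the difference 3.74 ± 0.52 (adjusted p = 5.22e-05). Bcl2a1a, Bcl2a1b and Bcl2a1d encode the anti-apoptotic protein A1 of leukocytes and are near-identical copies, so the split of reads between them is uncertain and they count as 1 observation. Their differences were 1.81 ± 0.28, 1.94 ± 0.33 and 1.87 ± 0.28 (adjusted p = 0.000248, 0.00473 and 0.000212). Bcl2a1d stood at 22.6, 29.3 and 29.1 CPM in ethanol and 70.7, 83.3 and 112 in VEA 3.12 lungs, and at 30.9, 40.4 and 36.5 in saline and 43.2, 26.9 and 26.7 in PG 826 lungs. Among 16 tested NF-kB feedback and target genes 1 passed in the difference (Bcl2a1b), 4 rose in the VEA arm, and the median difference was 0.30. Among 13 tested genes of TNF and interleukin signalling 1 passed in the difference, Tnfrsf9, and 4 rose in the VEA arm. Gdf15, a stress-induced cytokine of the TGF-beta family, had 1.43, 2.38 and 2.05 CPM in ethanol and 16.1, 13.9 and 22.4 in VEA 3.12 lungs, against 4.24, 1.95 and 1.65 in saline and 2.74, 3.74 and 3.12 in PG 826 lungs. Its difference was 2.86 ± 0.47 (VEA arm 3.15, PG arm 0.29, adjusted p = 0.00104) and was lost in limma-voom only. Atf3, a stress-induced transcription factor and the single immediate early gene of 16 tested to pass, had a difference of 1.88 ± 0.45 (VEA arm 1.44, PG arm -0.44, adjusted p = 0.0362), lost without saline 10, ethanol 13, ethanol 14, PG 22, PG 25, VEA 57 or VEA 59 (adjusted p 0.0553 to 0.153).

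Other genes that passed as higher are known from macrophages and dendritic cells, and they were put together here after their values were seen. Cd83, a marker of mature dendritic cells, stood at 5.82, 15.1 and 9.93 CPM in saline, 6.46, 6.35 and 4.999 in PG 826, 6.59, 8.42 and 7.01 in ethanol and 18.6, 17.3 and 24.5 in VEA 3.12 lungs. The VEA groups did not overlap and the PG groups did, with saline 8 the highest control. Its arms were 1.45 ± 0.29 and -0.78 ± 0.30 and the difference was 2.23 ± 0.42 (adjusted p = 0.00481). Mgl2, a lectin of dendritic cells and alternatively activated macrophages, stood at 36.5, 35.9 and 29.9 CPM in saline and 24.8, 29.1 and 26.8 in PG 826 lungs, and at 38.7, 31.2 and 25.0 in ethanol and 62.9, 60.9 and 77.3 in VEA 3.12 lungs. The arms moved apart, 1.08 ± 0.17 for VEA and -0.34 ± 0.17 for PG, with a difference of 1.42 ± 0.24 (adjusted p = 0.00107). All 3 VEA lungs stood above the ethanol lungs, and all 3 PG lungs below the saline lungs. Ctsk, a lysosomal collagenase, rose in the VEA arm by 3.48 ± 0.39, from 22.7, 11.7 and 15.9 to 172, 173 and 213 CPM. In the PG arm it went from 21.02, 23.5 and 20.7 to 36.05, 47.6 and 31.3 CPM, 0.82 ± 0.37 (adjusted p = 0.509), with no overlap of the groups. The difference was 2.65 ± 0.52 (adjusted p = 0.0354), and it was lost without saline 8, saline 10, ethanol 13, ethanol 14, PG 22, PG 25, VEA 56, VEA 57 or VEA 59 (adjusted p 0.0594 to 0.114). Lgals3, a lectin of macrophages, had a difference of 1.08 ± 0.21 (VEA arm 1.26, PG arm 0.18, adjusted p = 0.00712) and a VEA 3.12 mean of 531 ± 63.7 CPM against 222 ± 5.07 in ethanol, 279 ± 33.5 in PG 826 and 247 ± 23.6 in saline lungs. Igf1, a growth factor that lung macrophages and fibroblasts make, had a difference of 1.12 ± 0.21 (VEA arm 1.09, PG arm -0.03, adjusted p = 0.00637), with 68.3, 68.7 and 83.5 CPM in VEA 3.12 lungs and 30.5 to 36.9, 28.7 to 38.6 and 29.0 to 41.4 in ethanol, PG 826 and saline lungs. The actin-binding Cotl1 had a difference of 0.92 ± 0.18 (adjusted p = 0.00818), and both of its arms were positive, 1.17 ± 0.13 and 0.25 ± 0.13.

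Further genes that label leukocytes passed as higher, and most of these calls ended without some single libraries. Plet1, an alveolar macrophage surface protein, had a difference of 0.93 ± 0.20 (VEA arm 1.02, PG arm 0.09, adjusted p = 0.0162), lost without saline 8, ethanol 13, PG 25 or VEA 59 (adjusted p 0.0606 to 0.101). Cd74, the invariant chain of MHC class II, had a difference of 1.01 ± 0.23 (VEA arm 1.33, PG arm 0.32, adjusted p = 0.0231) with 238, 200.4 and 210.5 CPM in ethanol and 624, 519.7 and 487 in VEA 3.12 lungs, lost without ethanol 13, ethanol 14, PG 22, PG 23 or VEA 56 (adjusted p 0.059 to 0.106). Ccr2, the receptor of Ccl2 and Ccl7 on monocytes, had a difference of 0.98 ± 0.24 (VEA arm 1.00, PG arm 0.02, adjusted p = 0.0477), lost without saline 6, saline 8, saline 10, ethanol 12, ethanol 14, PG 23, PG 25, VEA 56 or VEA 59 (adjusted p 0.0576 to 0.178). Mmp8, the neutrophil collagenase, passed with 2.25 ± 0.44 (VEA arm 2.63, PG arm 0.38, adjusted p = 0.00712), from 4.61, 4.64 and 4.42 CPM in ethanol to 24.1, 31.0 and 29.9 in VEA 3.12 lungs, and from 8.09, 9.50 and 4.48 in saline to 13.5, 9.83 and 5.31 in PG 826 lungs. The low-affinity Fc receptor Fcgr2b passed with 1.90 ± 0.39 (VEA arm 1.79, PG arm -0.11, adjusted p = 0.00953), and Fcgr3 with 0.99 ± 0.22 (VEA arm 1.34, PG arm 0.36, adjusted p = 0.0224), lost without saline 10, ethanol 13, PG 25 or VEA 59 (adjusted p 0.0878 to 0.0928). The lectin receptor Clec4n passed with 1.33 ± 0.28 (VEA arm 2.16, PG arm 0.83, adjusted p = 0.0191), lost without saline 8, saline 10, ethanol 13, PG 25, VEA 56 or VEA 59 (adjusted p 0.0565 to 0.0935), and its PG arm was 0.83 ± 0.20 (adjusted p = 0.11) with no overlap of PG 826 and saline lungs.

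The marker lists give the setting. Of 16 tested alveolar macrophage markers 3 passed in the difference, all higher, while 8 rose in the VEA arm and 1 rose in the PG arm (Chil3). The median difference was 0.19, and 10 were positive and 6 negative. Their summed level was 1309.8 to 1937 CPM in saline, 2155 to 2629 in PG 826, 1527 to 1673 in ethanol and 4339 to 5060.1 in VEA 3.12 lungs, so the sums stood above the matching control in both arms without overlap. Ccl6 and Chil3 held much of these sums. Without them, a choice made after the values were seen, the sums were 611 to 807 CPM in saline, 773 to 972 in PG 826, 640.5 to 725 in ethanol and 1109 to 1221 in VEA 3.12 lungs, so the PG and saline lungs overlapped and the VEA and ethanol lungs did not. Of 16 recruited monocyte and macrophage markers 1 passed in the difference (Ccr2), 10 rose in the VEA arm and 0 in the PG arm, with a median difference of 0.66. Of 14 tested MHC class II and dendritic cell genes 1 passed (Cd74), 6 rose in the VEA arm and 0 in the PG arm, with a median difference of 0.69 and sums of 2541 to 2951 CPM in VEA 3.12 against 1583 to 1694 in ethanol lungs. In RNA from whole tissue, more or fewer cells of a type and more or less RNA per cell cannot be told apart. The part that such marker levels have in the single-gene differences was not tested. Lavage before sampling removed an amount of airspace cells that was not measured here.

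Genes of transporters and secreted proteins also passed, some of them known from the epithelium. RNA from whole tissue does not show which cells made these transcripts. Slc26a4 (chr12:31519827-31559969), the anion exchanger pendrin of the airway surface, stood at 1.09, 0.487 and 2.72 CPM in saline, 3.51, 2.44 and 2.29 in PG 826, 1.32, 0.864 and 0.324 in ethanol and 38.5, 24.8 and 37.3 in VEA 3.12 lungs. The VEA lungs stood far above the other 9. Its VEA arm was 5.31 ± 0.39, a fitted 39.7-fold rise, the PG arm 0.88 ± 0.40 (adjusted p = 0.503) and the difference 4.43 ± 0.59 (adjusted p = 3.87e-05), which was lost in limma-voom only. Slc39a2, a zinc importer, stood at 2.41, 1.73 and 0.971 CPM in ethanol and 14.2, 22.2 and 24.7 in VEA 3.12 lungs, and at 3.65, 3.90 and 6.23 in saline and 1.53, 4.52 and 0.937 in PG 826 lungs. Its difference was 4.51 ± 0.85 (VEA arm 3.57, PG arm -0.94, adjusted p = 0.0157), lost without saline 10, ethanol 13 or ethanol 14 (adjusted p 0.0597 to 0.065). Sftpd, the surfactant collectin D, was the single member of 13 tested surfactant and type II cell genes to pass, with 1283, 1283 and 1251 CPM in ethanol, 3527, 2594 and 2891 in VEA 3.12, 1104, 1430.0 and 1347 in saline and 1626, 1805 and 1400.4 in PG 826 lungs. Its difference was 0.92 ± 0.22 (VEA arm 1.24, PG arm 0.32, adjusted p = 0.0329), lost without saline 8, saline 10, ethanol 12, ethanol 13, ethanol 14, PG 25, VEA 56 or VEA 59 (adjusted p 0.0606 to 0.154). Sftpc, the surfactant protein that defines type II cells, had a difference of 0.25 ± 0.23 (adjusted p = 0.769). Slpi, a secreted inhibitor of leukocyte proteases, passed with 1.56 ± 0.31 (VEA arm 1.07, PG arm -0.49, adjusted p = 0.0134), lost without ethanol 14 (adjusted p = 0.0504). Vnn1, a pantetheinase, passed with 1.83 ± 0.36 (VEA arm 2.11, PG arm 0.28, adjusted p = 0.00818), with 51.8, 47.0 and 58.7 CPM in VEA 3.12 and 8.23, 12.2 and 16.0 in ethanol lungs.

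Tff2, a trefoil peptide that protects mucosal surfaces, was the only gene higher in the difference that passed in the PG arm and not in the VEA arm. It stood at 13.8, 13.9 and 14.4 CPM in saline and at 2.85, 3.74 and 0.937 in PG 826 lungs, with no overlap. It stood at 25.0, 9.93 and 6.47 in ethanol and at 13.0, 22.1 and 16.3 in VEA 3.12 lungs, which overlapped. In the PG arm it fell by 2.46 ± 0.41 on the log2 scale (adjusted p = 0.0031), the VEA arm was 0.31 ± 0.36 (adjusted p = 0.71), and the difference was 2.77 ± 0.54 (adjusted p = 0.00953). The call in the difference was lost without saline 8 and ethanol 13 together (adjusted p = 0.0926), and the PG call in limma-voom (adjusted p = 0.0573). Of 11 tested goblet and mucous cell genes, 2 passed in the difference, Slc26a4 and Tff2. Their summed level ranged widely within the control groups, from 207 to 2648 CPM in saline and 271 to 2659.8 in ethanol lungs, against 308 to 607 in PG 826 and 383 to 672 in VEA 3.12 lungs.

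Kif11, Kif23, Ccnb1 and Casc5, which act in mitosis, were higher in the difference, each with a VEA arm above 0 and a PG arm below 0. Kif11, the kinesin that separates spindle poles, stood at 3.75, 4.50 and 3.21 CPM in saline, 1.42, 1.22 and 0.625 in PG 826, 0.988, 2.48 and 1.08 in ethanol and 5.61, 6.23 and 4.63 in VEA 3.12 lungs. The groups separated downward in the PG arm, -1.79 ± 0.54 (adjusted p = 0.246), and upward in the VEA arm, 1.85 ± 0.52 (adjusted p = 0.0267), which was lost without ethanol 12, ethanol 14, VEA 56 or VEA 57 (adjusted p 0.0728 to 0.124). The difference was 3.64 ± 0.74 (adjusted p = 0.00953). Kif23, a kinesin of cytokinesis, stood at 7.30, 12.9 and 7.88 CPM in saline and only 1.76, 3.67 and 2.81 in ethanol lungs, and at 11.1, 5.13 and 5.10 and 11.1, 9.57 and 13.6 in the PG 826 and VEA 3.12 lungs. Its difference was 2.45 ± 0.52 (VEA arm 2.05, PG arm -0.40, adjusted p = 0.0162), lost without saline 8, ethanol 12, ethanol 14, PG 23, PG 25 or VEA 59 (adjusted p 0.0525 to 0.0745). Cyclin B1, Ccnb1, had a difference of 2.73 ± 0.66 (VEA arm 2.35, PG arm -0.38, adjusted p = 0.043), lost without saline 6, saline 8, ethanol 12, ethanol 13, PG 23, PG 25, VEA 56, VEA 57 or VEA 59 (adjusted p 0.0633 to 0.156). Casc5, a kinetochore scaffold, had 2.76, 5.05 and 5.62 CPM in VEA 3.12 lungs and a difference of 3.96 ± 0.87 (VEA arm 2.29, PG arm -1.68, adjusted p = 0.0189), lost without saline 10, ethanol 13, ethanol 14, PG 23, PG 25 or VEA 59 (adjusted p 0.05 to 0.0822), and its VEA arm was lost without ethanol 13, ethanol 14, VEA 57 or VEA 59 (adjusted p 0.0518 to 0.0962). Of 18 tested cell cycle genes 1 passed in the difference (Ccnb1), 8 rose and 1 fell (Pttg1) in the VEA arm, and Pttg1 also fell in the PG arm. A positive difference was found for 16 of the 18, against 7235 of all 14727 genes, and the median was 1.16. The medians of the arms were both positive, 1.34 for VEA and 0.23 for PG, unlike the 4 genes above. Rgs1, a regulator of G-protein signalling in lymphocytes, had the same pattern as Kif11, with 3.35, 5.72 and 7.20 CPM in saline, 2.52, 1.30 and 0.312 in PG 826, 0.768, 1.73 and 2.37 in ethanol and 3.52, 6.23 and 16.5 in VEA 3.12 lungs. Its difference was 4.39 ± 0.75 (VEA arm 2.42, PG arm -1.98, adjusted p = 0.00159), and the differences of both Rgs1 and Kif11 were lost in limma-voom only. The VEA arm of Rgs1 was lost without VEA 59 (adjusted p = 0.0998). The transcription factor Sp5 had 6.09, 6.13 and 6.18 CPM in VEA 3.12 lungs and at most 3.11 in the other 9, with a difference of 3.50 ± 0.69 (VEA arm 3.06, PG arm -0.44, adjusted p = 0.00712), lost without saline 10 (adjusted p = 0.0552).

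The other genes higher in the difference rose in the VEA arm by 0.63 to 3.53 on the log2 scale, except Basp1. Among them, Nup62-il4i1, a readthrough transcript that overlaps the amino acid oxidase gene Il4i1, had a difference of 2.75 ± 0.56 (VEA arm 2.90, PG arm 0.15, adjusted p = 0.00953), and its reads cannot be told apart from those of the genes it spans. Ptpn7, a phosphatase of blood cells, stood at 6.31, 8.40 and 4.48 CPM in saline and 3.94, 3.22 and 2.19 in PG 826 lungs and at 4.28, 2.48 and 4.96 in ethanol and 10.2, 7.20 and 11.6 in VEA 3.12 lungs, with a difference of 2.33 ± 0.48 (VEA arm 1.30, PG arm -1.03, adjusted p = 0.00953). Its VEA arm was lost without ethanol 13, VEA 56 or VEA 59 (adjusted p 0.0541 to 0.106). Mthfd2, a mitochondrial enzyme of folate metabolism, had a difference of 2.07 ± 0.43 (VEA arm 2.09, PG arm 0.02, adjusted p = 0.0128), lost without ethanol 13 (adjusted p = 0.0517). These 3 genes had levels in the VEA lungs above those of the ethanol lungs in every library. The leukocyte genes Mnda, Aif1, Cd53 and Cd300lf had differences of 1.69, 1.45, 1.32 and 1.17 (adjusted p = 0.0456, 0.0156, 0.0359 and 0.043). Mnda was lost without saline 8, saline 10, ethanol 12, ethanol 13, ethanol 14, PG 22, PG 25, VEA 56 or VEA 59 (adjusted p 0.0902 to 0.156), and Aif1 without saline 8, ethanol 12, PG 25 or VEA 59 (adjusted p 0.052 to 0.0811). Cd53 was lost without saline 8, saline 10, ethanol 12, ethanol 14, PG 23, PG 25, VEA 56 or VEA 59 (adjusted p 0.0552 to 0.136), and Cd300lf without saline 8, saline 10, ethanol 12, ethanol 13, ethanol 14, PG 22, PG 23, PG 25, VEA 57 or VEA 59 (adjusted p 0.0555 to 0.13). The lectin Lgals1 and the protease Ctsc had 1.17 and 1.21 (adjusted p = 0.00712 and 0.00974), and Ctsc was lost without VEA 56 (adjusted p = 0.0533). Nnat had 1.46 (adjusted p = 0.00818), lost without VEA 56 (adjusted p = 0.0533). The protease inhibitor Serpinb1a, E2f5, Itpa, Glipr2 and Id2 had differences of 1.03, 1.34, 1.20, 1.08 and 0.87 (adjusted p 0.0169 to 0.0436). Serpinb1a was lost without saline 8, ethanol 12, ethanol 13, PG 23, PG 25, VEA 57 or VEA 59 (adjusted p 0.0531 to 0.13), E2f5 without saline 8, saline 10, ethanol 13, ethanol 14, PG 22, PG 23, PG 25, VEA 56 or VEA 59 (adjusted p 0.0532 to 0.133) and Itpa without saline 8, ethanol 12, ethanol 13, PG 23, PG 25, VEA 56 or VEA 57 (adjusted p 0.0603 to 0.214). The VEA arms of E2f5 and Itpa were lost without ethanol 13 (adjusted p = 0.0678) and without ethanol 12, ethanol 13 or VEA 56 (adjusted p 0.0806 to 0.136). E2f5 (chr3:14578641-14606309, plus strand) and 1810022K09Rik (chr3:14606284-14611285, minus strand) overlap at their 3′ ends. As the strand setting is not given, their reads cannot be told apart there, and they may not be separate observations. Glipr2 was lost without ethanol 13, ethanol 14, PG 23, VEA 56 or VEA 59 (adjusted p 0.0514 to 0.0874), and Id2, a repressor of differentiation, without saline 8, saline 10, ethanol 13, ethanol 14, PG 22, VEA 56 or VEA 59 (adjusted p 0.0512 to 0.0863). Basp1, a membrane protein, was past the threshold in neither arm, 0.44 ± 0.17 and -0.54 ± 0.17, and its difference of 0.97 ± 0.24 (adjusted p = 0.0439) was lost without each library but saline 6 (adjusted p 0.0579 to 0.174). The transcripts AA467197, AI662270 and 1810022K09Rik, which have no established name in the files, had differences of 3.30, 1.08 and 1.02 (adjusted p = 0.0162, 0.0317 and 0.0227). They were lost without saline 10, ethanol 12, ethanol 13 or ethanol 14 (adjusted p 0.055 to 0.158), without saline 10, ethanol 14, PG 22, PG 23, PG 25, VEA 56, VEA 57 or VEA 59 (adjusted p 0.0524 to 0.156) and without saline 8, saline 10, ethanol 13, ethanol 14, PG 25, VEA 56 or VEA 59 (adjusted p 0.0565 to 0.128), in this order, and the VEA arm of 1810022K09Rik was lost without ethanol 13 (adjusted p = 0.0593).

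Among the genes that passed, the most negative differences were those of the clock genes Per1 and Dbp, and both passed in the PG arm and not in the VEA arm. Per1, a core clock repressor, stood at 5.33, 5.48 and 9.73 CPM in saline and 26.2, 20.8 and 23.2 in PG 826 lungs. It stood at 13.6, 10.7 and 18.8 in ethanol and 9.70, 8.81 and 15.3 in VEA 3.12 lungs. The PG lungs were above all other lungs, the ethanol lungs were above the saline lungs, and ethanol and VEA lungs overlapped. In the PG arm Per1 rose by 1.77 ± 0.31 (adjusted p = 0.0031), the VEA arm was -0.35 ± 0.30 (adjusted p = 0.589) and the difference was -2.11 ± 0.43 (adjusted p = 0.00953). The difference was lost without ethanol 14 (adjusted p = 0.0557), and the PG arm without saline 8 (adjusted p = 0.0768). Dbp, a clock-controlled transcription factor, stood at 1.87, 4.26 and 4.57 CPM in saline and 14.4, 17.0 and 10.4 in PG 826 lungs, and at 6.37, 9.50 and 10.6 in ethanol and 9.13, 9.03 and 5.85 in VEA 3.12 lungs. Here too the ethanol lungs lay above the saline lungs, and ethanol 14 reached the lowest PG lung. Dbp rose by 1.97 ± 0.34 in the PG arm (adjusted p = 0.0031, past in all 19 fits), while the VEA arm was -0.14 ± 0.32 and the difference -2.10 ± 0.47 (adjusted p = 0.0191). The difference was lost without ethanol 13, ethanol 14, PG 23 or VEA 59 (adjusted p 0.0517 to 0.0848). Nr1d2, the repressor REV-ERB beta, had 9.57, 14.4 and 17.6 CPM in saline, 24.0, 34.9 and 25.5 in PG 826, 13.6, 25.3 and 29.0 in ethanol and 22.6, 15.5 and 12.8 in VEA 3.12 lungs. Its difference was -1.44 ± 0.35 (VEA arm -0.41, PG arm 1.02, adjusted p = 0.0438), lost without saline 6, saline 8, ethanol 13, ethanol 14, PG 23, PG 25, VEA 57 or VEA 59 (adjusted p 0.0671 to 0.178). Its paralog Nr1d1 rose by 1.07 ± 0.23 in the PG arm (adjusted p = 0.0389, lost in limma-voom and without saline 8, saline 10, PG 22, PG 23, PG 25 or VEA 57 (adjusted p 0.0503 to 0.34)) and had a difference of -0.87 ± 0.32 that did not pass (adjusted p = 0.304).

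Of 16 tested clock genes 3 passed as lower in the difference (Per1, Dbp and Nr1d2) and 0 as higher, 3 rose in the PG arm (Per1, Dbp and Nr1d1), and 1 rose in the VEA arm. The median difference was -0.68, with 5 positive and 11 negative, against 7235 and 7492 of all genes. The median of the list was 0.06 in the PG arm and -0.27 in the VEA arm, so the list as a whole hardly moved with PG. With ethanol against saline 0 of the 16 passed, and the differences between the control groups were 1.06 ± 0.31 for Per1 and 1.31 ± 0.34 for Dbp (adjusted p = 0.592 and 0.571). Clock transcripts change with the hour of the day, and the hour of killing is not in the labels, so an hour that differed between groups cannot be told apart from the treatments.

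Among genes that answer to glucocorticoids, Klf9 passed in the difference and Fkbp5 did not. Klf9, a zinc finger transcription factor, stood at 285, 256 and 265 CPM in saline and 433, 474 and 527 in PG 826 lungs, and at 354, 297 and 416 in ethanol and 263, 301 and 348 in VEA 3.12 lungs. The PG lungs were above all other lungs. Klf9 rose by 0.83 ± 0.14 in the PG arm (adjusted p = 0.0031), the VEA arm was -0.23 ± 0.14, and the difference was -1.06 ± 0.20 (adjusted p = 0.00656). The PG arm was lost without saline 8 (adjusted p = 0.0594). Fkbp5, a chaperone of the glucocorticoid receptor and one of its main target genes, rose in both arms, by 2.04 ± 0.27 with PG (adjusted p = 9.56e-05) and by 1.11 ± 0.26 with VEA (adjusted p = 0.00709). The VEA call was lost without ethanol 12 or VEA 56 (adjusted p 0.0558 to 0.0564). It stood at 3.16, 9.25 and 5.25 CPM in saline, 26.4, 18.4 and 27.2 in PG 826, 7.68, 9.83 and 11.2 in ethanol and 24.3, 18.3 and 19.5 in VEA 3.12 lungs, and its difference of -0.93 ± 0.38 did not pass (adjusted p = 0.356). Of 13 tested glucocorticoid receptor targets, 2 passed as lower in the difference (Per1 and Klf9), 3 rose in the PG arm, and 2 rose and 1 fell in the VEA arm, with a median difference of -0.44. Alas1, the rate-limiting enzyme of haem synthesis, stood at 109, 91.8 and 93.4 CPM in saline, 139, 170.5 and 152 in PG 826, 105, 147 and 109 in ethanol and 102, 88.2 and 112 in VEA 3.12 lungs. It rose by 0.65 ± 0.14 in the PG arm (adjusted p = 0.0379) and had a difference of -0.92 ± 0.20 (VEA arm -0.26, PG arm 0.65, adjusted p = 0.0151), lost without saline 10, ethanol 13, PG 23 or VEA 57 (adjusted p 0.0512 to 0.0922). Its PG arm was lost in the 4-group fit (adjusted p = 0.0583) and without saline 8, saline 10, PG 23 or PG 25 (adjusted p 0.12 to 0.253).

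The other lower genes had small and opposite arms, of which few passed alone. Hes1, a Notch-induced repressor, stood at 159, 142 and 136 CPM in saline and 207, 239.8 and 201 in PG 826 lungs, and at 167, 212 and 169 in ethanol and 149.6, 135 and 143 in VEA 3.12 lungs. Neither pair of groups overlapped, the PG lungs being higher and the VEA lungs lower than their controls. The arms were 0.57 ± 0.14 and -0.36 ± 0.14, and the difference was -0.93 ± 0.20 (adjusted p = 0.0162), lost without saline 10, ethanol 13, PG 23 or VEA 57 (adjusted p 0.0586 to 0.0876). Hey1, a second Notch target, stood at 33.2, 32.9 and 34.3 CPM in saline, 49.1, 47.0 and 63.7 in PG 826, 46.6, 34.8 and 38.3 in ethanol and 30.7, 26.4 and 33.6 in VEA 3.12 lungs. Its difference was -1.07 ± 0.25 (VEA arm -0.40, PG arm 0.67, adjusted p = 0.0362), lost without saline 8, saline 10, ethanol 12, ethanol 14, PG 25, VEA 56 or VEA 57 (adjusted p 0.0702 to 0.195). Axin2, a feedback inhibitor and target of Wnt signalling, stood at 6.61, 3.90 and 3.50 CPM in saline and 12.0, 14.0 and 12.9 in ethanol lungs, and at 7.89, 10.2 and 11.0 in PG 826 and 7.14, 7.20 and 9.93 in VEA 3.12 lungs. The treated groups overlapped, and the control groups were the farthest apart. Its difference was -1.73 ± 0.41 (VEA arm -0.68, PG arm 1.05, adjusted p = 0.0362), lost without saline 8, saline 10, ethanol 13, ethanol 14, PG 23, PG 25, VEA 56 or VEA 57 (adjusted p 0.0857 to 0.134). Pcdh1, a protocadherin of airway epithelium, had a difference of -1.34 ± 0.31 (VEA arm -0.67, PG arm 0.66, adjusted p = 0.0317), lost without saline 8, saline 10, ethanol 12, PG 23, PG 25 or VEA 56 (adjusted p 0.077 to 0.126). The tetraspanin Tspan2 fell in the VEA arm by 0.73 ± 0.16 (adjusted p = 0.00458) and had a difference of -0.94 ± 0.23 (adjusted p = 0.0458), lost without saline 8, saline 10, ethanol 13, ethanol 14, PG 23, PG 25, VEA 56, VEA 57 or VEA 59 (adjusted p 0.0539 to 0.172). Its VEA arm was lost without VEA 59 (adjusted p = 0.0538).

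S1pr1, the sphingosine-1-phosphate receptor that holds the endothelial barrier, fell in the VEA arm. It stood at 140.1, 124 and 122 CPM in saline, 151, 159.8 and 187 in PG 826, 144, 154 and 163 in ethanol and 96.3, 109.8 and 105 in VEA 3.12 lungs. All 3 VEA lungs were below the other 9, and the PG lungs were above the saline lungs. The VEA arm was -0.57 ± 0.13 (adjusted p = 0.00563), the PG arm 0.37 ± 0.13 (adjusted p = 0.335) and the difference -0.93 ± 0.18 (adjusted p = 0.00712), lost only without saline 8 and ethanol 13 together (adjusted p = 0.0594). Of 18 tested endothelial markers 0 passed in the difference, and the median was -0.51. Lower at an unadjusted p below 0.05 were 8 of the 18, against 746 of all 14727 genes. A negative difference was found for 17 of the 18, against 7492 of all 14727 genes. In the VEA arm 4 of the 18 fell. Their summed level was 1826 to 1860.0 CPM in VEA 3.12 against 2523 to 2772 in ethanol, 2172 to 2655 in PG 826 and 2149.8 to 2774 in saline lungs, and its part in the S1pr1 result was not tested. Vwf, the endothelial clotting factor, had a difference of -1.12 ± 0.30 (adjusted p = 0.0949).

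**Figure D3:**
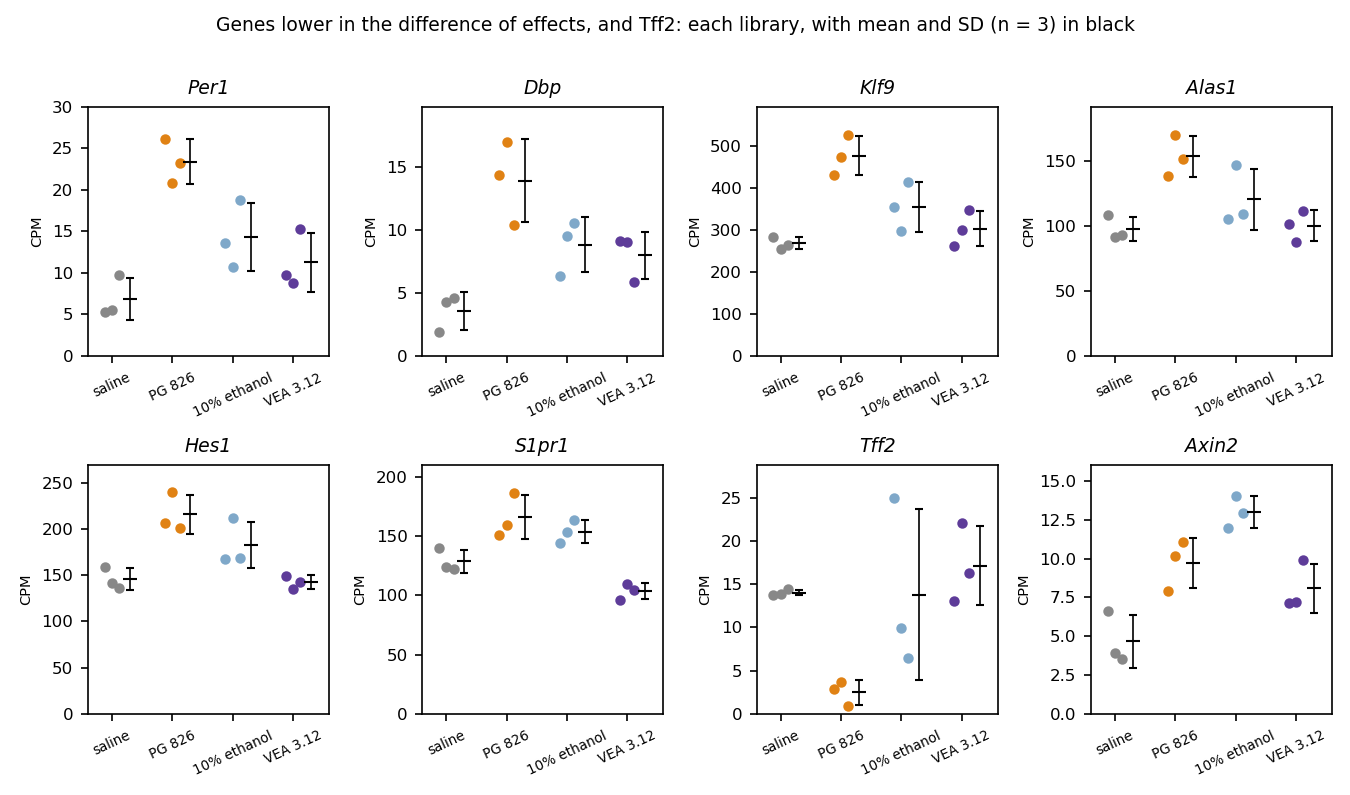
CPM of 7 genes lower in the difference and of Tff2, each library a point, with the mean and SD of each group of 3 in black. For Per1, Dbp, Klf9 and Alas1 the PG 826 group stands above saline, for S1pr1 the VEA 3.12 group stands below ethanol, and for Tff2 the PG 826 group stands below saline.

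A difference of effects can come from the treated lungs, from the control lungs or from both, because it equals the difference between VEA 3.12 and PG 826 lungs plus the difference between saline and 10% ethanol lungs. Directly between treated lungs, 157 genes were higher (1.07%) and 41 lower (0.278%) with VEA 3.12 than with PG 826. Between control lungs 0 genes passed (0%) by edgeR's quasi-likelihood test, although 892 had an unadjusted p below 0.05; DESeq2 gave 1 higher gene and limma-voom gave 0. Of the 60 higher genes, 54 also passed between the treated lungs, and of the 11 lower genes 6 did. Ethanol lay below saline for 50 of the 60 higher genes, with a median of -0.35, and above saline for all 11 lower genes, with a median of 0.40. Among genes chosen for a positive or negative difference, controls that lie to that side are favoured by the choice.

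For 5 of the 60 higher and 4 of the 11 lower genes the control lungs differed by more than the treated lungs. Kif23 was 0.69 ± 0.35 between treated lungs (adjusted p = 0.454) and -1.76 ± 0.39 between ethanol and saline (adjusted p = 0.45). Axin2 was -0.26 ± 0.29 between treated lungs (adjusted p = 0.806) and 1.47 ± 0.30 between ethanol and saline (adjusted p = 0.234). For these genes the treated lungs were not shown to differ. Dbp was -0.80 ± 0.32 between treated lungs (adjusted p = 0.278) and 1.31 ± 0.34 between controls, while Per1 was -1.05 ± 0.30 (adjusted p = 0.0734) and 1.06 ± 0.31. For Cxcl1, Cxcl5, Ccl17 and Ccl6 the treated lungs passed and lay farther apart than the controls. Cxcl1 was 4.18 ± 0.45 between treated lungs (adjusted p = 1.29e-07) and -1.68 ± 0.57 between controls (adjusted p = 0.606), and Cxcl5 was 4.73 ± 0.60 (adjusted p = 0.000396) and -0.97 ± 0.57, so a part of both differences lay in the controls. Ccl17 was 3.06 ± 0.23 (adjusted p = 8.07e-12) with 0.26 ± 0.23 between controls, and Ccl6 was 2.16 ± 0.19 (adjusted p = 5.54e-09) with -0.01 ± 0.18 between controls. For Tff2 the controls were -0.02 ± 0.36 apart and the treated lungs 2.75 ± 0.41 (adjusted p = 0.000164).

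**Figure D4:**
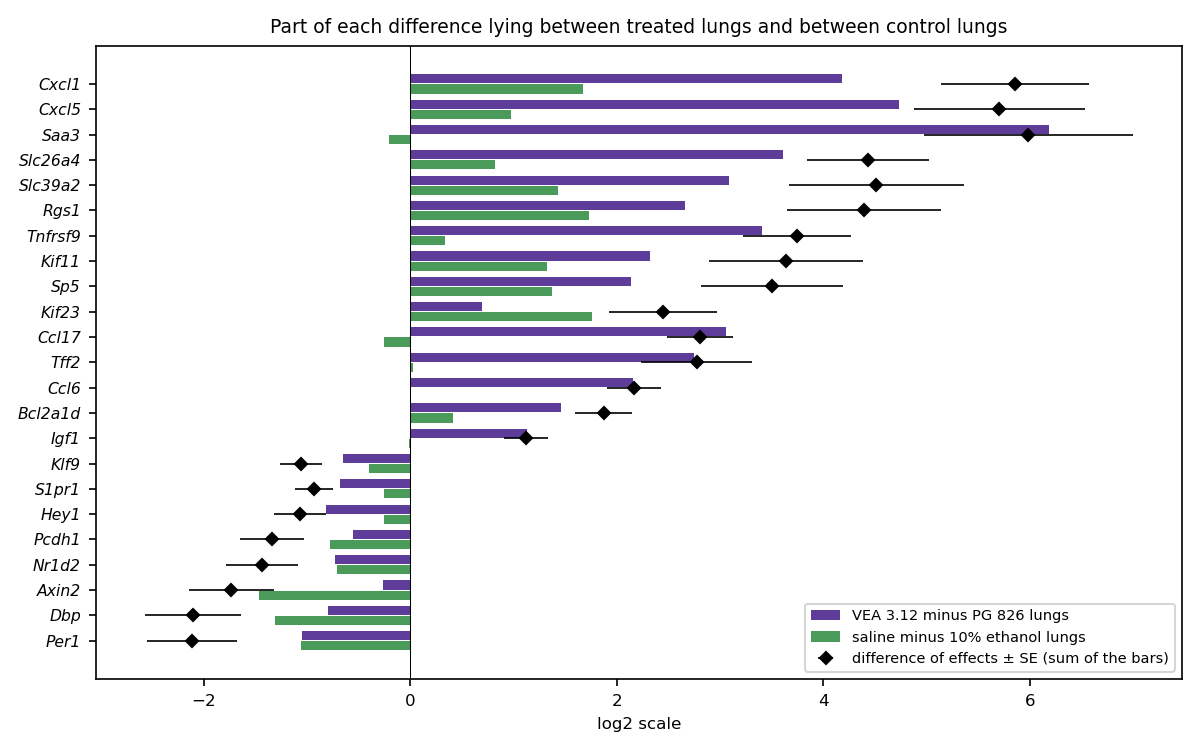
For each gene, 1 bar is the log2 difference between VEA 3.12 and PG 826 lungs and the other that between saline and 10% ethanol lungs, and the diamond with its SE is their sum, the difference of effects. For Ccl6 the sum of 2.16 lies wholly in the treated lungs, and for Axin2 the larger part of -1.73 lies between the controls.

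The PG arm had 20 genes past the threshold, of which 5 also passed in the difference (Tff2, Per1, Dbp, Klf9 and Alas1) and 15 did not. Of the 20 genes, 9 passed in the VEA arm as well, in the same direction each time, which is 45% of the PG list and 1.11% of the VEA list. Of all genes tested, 3.42% passed as higher and 2.09% as lower in the VEA arm, and 57.0% had the same sign in both arms. None of these 9 passed in the difference. Higher in both arms were Retnla, Chil3, Fkbp5, Lox and Tmem106a, and lower in both were Asgr1, Gstm2, Mak and Pttg1. Retnla, a secreted product of alternatively activated macrophages and epithelium, stood at 122, 66.1 and 98.8 CPM in saline and 588, 394 and 217 in PG 826 lungs, and at 128, 125 and 82.5 in ethanol and 825, 591 and 884 in VEA 3.12 lungs. Neither pair of groups overlapped. Its PG call was lost in limma-voom, in the 4-group fit and without saline 8, saline 10, ethanol 13, PG 22, PG 23 or VEA 56 (adjusted p 0.0525 to 0.231). The arms of Retnla were 2.06 ± 0.36 and 2.78 ± 0.36, and the difference was 0.72 ± 0.49 (adjusted p = 0.666). Chil3, a chitinase-like protein of macrophages with close paralogs, had arms of 0.93 ± 0.16 for PG and 0.95 ± 0.16 for VEA. Its difference was 0.01 ± 0.22, with 1063, 957 and 874 CPM in PG 826 and 891, 865 and 1085 in VEA 3.12 lungs. Lox, the collagen cross-linking oxidase, had arms of 1.07 ± 0.20 and 0.78 ± 0.20 and a difference of -0.29 ± 0.28. Its PG call was lost in limma-voom and without saline 8, saline 10, PG 23 or PG 25 (adjusted p 0.0681 to 0.145), and its VEA call without ethanol 12, ethanol 14 or VEA 59 (adjusted p 0.0602 to 0.0832). Gstm2, a glutathione S-transferase with close paralogs, had arms of -0.72 ± 0.15 and -0.96 ± 0.15 and a difference of -0.24 ± 0.22, and its PG call was lost without saline 8, saline 10, PG 22, PG 23 or PG 25 (adjusted p 0.111 to 0.183). Asgr1, a lectin receptor, fell from 24.3 ± 9.01 to 6.13 ± 1.32 CPM with PG and from 23.4 ± 3.81 to 7.39 ± 1.24 CPM with VEA, and its difference was 0.33 ± 0.44. For Pttg1, securin, both arms were close to each other, -0.66 ± 0.14 and -0.65 ± 0.14, with a difference of 0.00 ± 0.20, and its PG call was lost without saline 8, saline 10, PG 23 or PG 25 (adjusted p 0.12 to 0.315). The PG call of Mak was lost without saline 8, saline 10, PG 23 or PG 25 (adjusted p 0.0856 to 0.306) and its VEA call without ethanol 12, ethanol 13, VEA 57 or VEA 59 (adjusted p 0.0635 to 0.193). For Tmem106a the PG call was lost in limma-voom, in the 4-group fit and without saline 8, saline 10, PG 22, PG 23, PG 25 or VEA 57 (adjusted p 0.0503 to 0.244), and the VEA call without ethanol 13 or VEA 56 (adjusted p 0.0663 to 0.0944). Of the 9 genes, Chil3 and Asgr1 kept both calls in all 19 fits. A difference that did not pass does not show that the effects were equal, and the SEs give the size that could have been missed.

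The remaining PG genes passed in that arm alone and did not pass in the difference. Sema7a, a semaphorin, rose by 1.39 ± 0.24 in the PG arm (adjusted p = 0.0031), the VEA arm was 0.10 ± 0.24, and the difference of -1.29 ± 0.34 lay just outside the threshold (adjusted p = 0.0717). The PG call was lost without saline 8 or saline 10 (adjusted p 0.0684 to 0.0737). Col1a1, the alpha 1 chain of type I collagen, rose by 0.93 ± 0.20 with PG (adjusted p = 0.0497), and the VEA arm was 0.64 ± 0.20 (adjusted p = 0.0532). The PG call of Col1a1 was lost without each library but saline 6 (adjusted p 0.0532 to 0.365). Vpreb3, a B cell gene, fell in the PG arm by 1.47 ± 0.27 (adjusted p = 0.0076) and had a difference of 1.01 ± 0.38, and the PG call was lost without saline 8, PG 22 or PG 25 (adjusted p 0.0587 to 0.131). Atp11a, a phospholipid flippase, and Zfp598 rose by 0.70 ± 0.15 and 0.97 ± 0.22 with PG (adjusted p = 0.0484 and 0.0499) and had differences of -0.23 ± 0.22 and -0.98 ± 0.30. The PG call of Atp11a was lost with RLE size factors, in limma-voom, in the 4-group fit and without saline 8, saline 10, ethanol 13, PG 23, PG 25, VEA 56 or VEA 57 (adjusted p 0.0526 to 0.448). That of Zfp598 was lost in these 3 fits, without Rn45s and haemoglobin, and without each library but saline 6 (adjusted p 0.0522 to 0.38). With the matrix and fibrosis list, 2 of 19 tested members rose in the PG arm and 5 in the VEA arm, 0 passed in the difference, and the median difference was -0.01.

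Several lists had negative medians without a member that passed in the difference. Phase I xenobiotic oxidation genes had a median of -0.81 over 15 tested members, all 15 negative, against 7492 of all 14727 genes. In the VEA arm 11 of the 15 were lower. In the PG arm 0 of them passed, with a median of -0.42. Their summed level was 1732 to 1869 CPM in VEA 3.12, 3198 to 4535 in ethanol, 2609.9 to 2922 in PG 826 and 3423 to 3828 in saline lungs. Many of these enzymes are made by club cells, whose markers also had mostly negative values. Of 11 club cell markers 0 passed in the difference, 5 fell in the VEA arm, and the median difference was -0.49. Scgb1a1, the club cell secretoglobin, stood at 62351, 59607 and 45259 CPM in ethanol and 27727, 29771 and 25678 in VEA 3.12 lungs, and at 47441, 55295 and 62601 in saline and 38989.9, 39827 and 36929.8 in PG 826 lungs. It was lower without overlap in both arms, -1.01 ± 0.15 (adjusted p = 2.96e-05) and -0.51 ± 0.15 (adjusted p = 0.224), and the difference was -0.49 ± 0.21 (adjusted p = 0.392). The part of the club cell markers in the xenobiotic result was not tested. Motile cilia genes had 0 of 17 past in the difference, 5 lower in the VEA arm and a median difference of -0.14. Carboxylesterases had a median of -1.06 over 9 members with 4 lower in the VEA arm. The 19 glutathione S-transferases had 6 lower in the VEA arm, 1 lower in the PG arm (Gstm2) and a median difference of -0.24.

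Lists related to the agents had at most 1 member past in the difference. Genes of vitamin E uptake, transfer and breakdown had 0 of 9 tested members past in the difference or in either arm, and Sec14l2, a tocopherol-binding protein, had the smallest p of the list with -0.71 ± 0.37 (adjusted p = 0.504). Cholesterol synthesis and uptake genes had 0 of 19 past in the difference or in either arm. Lipid-handling macrophage genes had 1 of 20 past in the difference (Lgals3) and 9 higher in the VEA arm, with a median difference of 0.21. Against 825 of all 14727 genes, 9 of the 20 were higher in the difference at an unadjusted p below 0.05. Their summed level was 4694 to 5134 CPM in VEA 3.12, 3365 to 3437 in ethanol, 3282 to 3707 in PG 826 and 3018 to 3811 in saline lungs, so only the VEA lungs stood apart from their controls. Plin2, which coats lipid droplets, rose by 0.50 ± 0.15 in the VEA arm (adjusted p = 0.0465, lost without ethanol 12, ethanol 13, ethanol 14, PG 23, PG 25, VEA 56, VEA 57 or VEA 59 (adjusted p 0.0528 to 0.16)), and its difference was 0.44 ± 0.22 (adjusted p = 0.467). NRF2 targets had 0 of 15 past in the difference, with 2 higher and 1 lower in the VEA arm. Alcohol and aldehyde dehydrogenases had 0 of 12 past in the difference and 2 lower in the VEA arm, among them Aldh1a1, with -1.06 ± 0.17 in the VEA arm, -0.37 ± 0.17 in the PG arm and -0.69 ± 0.24 in the difference.

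**Figure D5:**
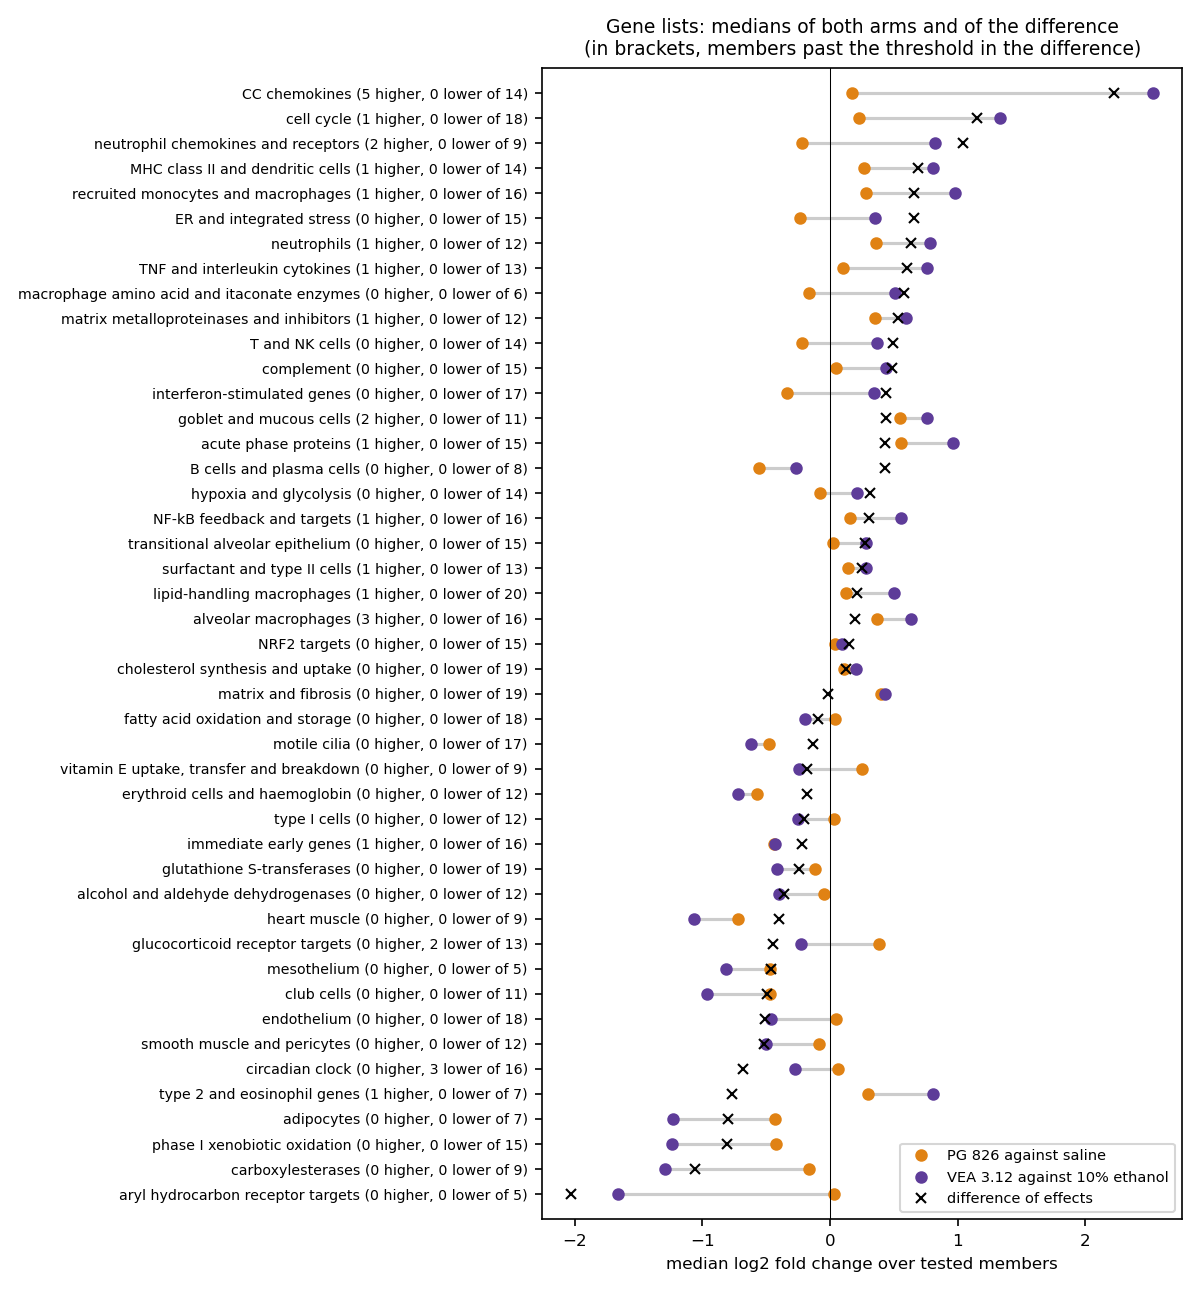
Median log2 value of each gene list over its tested members in the PG arm (orange), the VEA arm (purple) and the difference (cross), with the lists ordered by the difference. The medians of the difference run from 2.22 for CC chemokines (14 tested) to -2.02 for aryl hydrocarbon receptor targets (5 tested). Over all genes the median is -0.01.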

How the data were processed

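Lung RNA of 21 mice was measured as 3′ end libraries (Lexogen QuantSeq, 500 ng of total RNA each, per the labels' protocols), and 12 libraries in 4 groups enter the comparison. The authors deposited raw counts per gene symbol, 1 file per library. The submitters' processing notes name Bowtie2, bedtools and mm10. Versions, annotation and strand setting are not given in the sources used here, so overlapping and antisense genes cannot be told apart, and near-identical paralogs are uncertain. Each file holds 23282 entries for 23238 symbols, and the 35 symbols with more than 1 entry were summed.

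edgeR 4.0.16 (R 4.3.3) was fitted to all 21 libraries with a mean for each of 7 groups (filterByExpr by group, TMM, robust quasi-likelihood fit, 14 residual degrees of freedom), so that the groups share 1 estimate of spread. The contrast was (VEA 3.12 - 10% ethanol) - (PG 826 - saline). P-values were Benjamini-Hochberg adjusted over 14727 genes with a threshold of 0.05, and the SE is the absolute log2 change over the square root of F. The script was tested on simulated data. Within groups the chi-square per degree of freedom between libraries was 8.55 to 40.5, so no 2 libraries were counted as 1. Coordinates come from GENCODE M21 on GRCm38.

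Genes were named by a rule: of those past the threshold with at least 5 CPM in the highest group, the 12 largest and 3 smallest p values in each direction, all genes past the threshold in the PG arm, and up to 4 per gene list (the 1 of smallest p where none passed). The other genes past the threshold were named after their values were seen, so that all 71 are accounted for, as were the tissue markers. The 45 gene lists were written from general knowledge. The comparison, members and lists were chosen with earlier results of these data known. Lists are described by counts and medians only.

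Results were recomputed with limma-voom (limma 3.58.1), DESeq2 1.42.0, RLE size factors, no low-count filter, a fit of the 4 groups alone, a log2 difference of at least 1, removal of Rn45s and haemoglobin, and removal of libraries.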

Additional observations from a re-analysis of the deposited data

Results flagged for a closer look

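For 13 of the 71 genes that passed in the difference of effects, both arms separated their groups without overlap and in opposite directions, so each of the 3 VEA 3.12 lungs lay to 1 side of all ethanol lungs and each of the 3 PG 826 lungs lay to the other side of all saline lungs. The difference itself was tested for each by edgeR's quasi-likelihood test with Benjamini-Hochberg adjustment. The 71 genes were chosen by the difference, which favours arms that move apart, so the separation describes them and is no test. The share of all tested genes with such a separation was not counted. In 8 genes the VEA lungs were higher and the PG lungs lower. The differences were 5.71 for Cxcl5 (adjusted p = 0.00481), 4.39 for Rgs1 (adjusted p = 0.00159), 3.96 for Casc5 (adjusted p = 0.0189), 3.64 for Kif11 (adjusted p = 0.00953), 2.33 for Ptpn7 (adjusted p = 0.00953), 1.42 for Mgl2 (adjusted p = 0.00107), 0.97 for Basp1 (adjusted p = 0.0439) and 0.87 for Id2 (adjusted p = 0.0191). Their PG arms ran from -1.99 (Cxcl5) to -0.24 (Id2), and 0 of these PG arms passed alone.

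In the other 5 the VEA lungs were lower and the PG lungs higher. The differences were -1.73 for Axin2 (adjusted p = 0.0362), -1.34 for Pcdh1 (adjusted p = 0.0317), -1.07 for Hey1 (adjusted p = 0.0362), -0.93 for Hes1 (adjusted p = 0.0162) and -0.93 for S1pr1 (adjusted p = 0.00712). Of these 13 genes, Cxcl5 and Mgl2 passed in all 19 other fits. For Axin2, Pcdh1 and Id2 the control lungs lay at least as far apart as the treated lungs. Ethanol minus saline was 1.47 for Axin2, 0.78 for Pcdh1 and -0.44 for Id2. VEA 3.12 minus PG 826 was -0.26, -0.56 and 0.44, in this order. The means of Pcdh1 were 18.7 CPM in saline, 29.6 in PG 826, 32.2 in ethanol and 20.2 in VEA 3.12 lungs.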

How the results depend on the processing

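No paired analysis was possible because the groups compared share no replicate numbers. None of the 71 genes that passed in the difference changed sign in the 19 refits, while differences near 0 did, such as Chil3 (-0.12 to 0.19). The 60 higher and 11 lower genes of the difference of effects stayed at 60 and 11 with RLE size factors and without Rn45s and haemoglobin. With DESeq2 there were 115 and 43, with no low-count filter 188 and 82, and without saline 8 and ethanol 13 together 23 and 2. limma-voom gave 27 higher and 8 lower genes. The fit of the 4 groups alone gave 17 lower genes, and a log2 difference of at least 1 left 7. Leaving out 1 library at a time gave 38 (without VEA 59) to 123 (without saline 6) higher and 5 (without ethanol 13, ethanol 14 or VEA 57) to 68 (without saline 6) lower genes. Of the 60 and 11 genes, DESeq2 and the unfiltered fit shared all, limma-voom shared 27 and 7, the 4-group fit 48 and 9, and the fit without saline 8 and ethanol 13 shared 21 and 2.

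In the VEA arm (504 higher, 308 lower) the counts were 332 and 154 without saline 8 and ethanol 13, 263 and 95 at a log2 change of at least 1, and 295 to 556 and 139 to 369 with 1 library left out. In the PG arm (14 and 6) they were 47 and 31 with DESeq2, 87 and 75 with no filter, 4 and 2 without saline 8 and ethanol 13, and 3 to 84 and 2 to 36 with 1 library left out. limma-voom gave 8 higher genes there, a log2 change of at least 1 gave 8, and the 4-group fit gave 10 lower genes. Between ethanol and saline (0 and 0), DESeq2 gave 1 higher gene, no filter gave 13 and 4, and leaving out 1 library gave 0 to 2 higher and 0 lower. Between treated lungs (157 and 41), no filter gave 301 and 120, DESeq2 gave 85 lower, a log2 change of at least 1 left 3 lower, and leaving out 1 library gave 77 to 181 and 14 to 61. With 1 library left out, a group of 2 is assumed to vary like the others. The cause of these shifts was not tested, except that fewer libraries and fewer genes enter by construction. At 5 CPM a gene had 41.1 to 57.5 counts, and genes below that level rest on few counts.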

Other observations

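Some genes of xenobiotic metabolism had the highest levels of the 12 lungs in the 10% ethanol group. Cyp1b1, a target of the aryl hydrocarbon receptor, stood at 1.18, 3.04 and 2.24 CPM in saline, 3.07, 4.87 and 3.65 in PG 826, 6.92, 6.37 and 6.04 in ethanol and 2.28, 1.93 and 1.88 in VEA 3.12 lungs. All 3 ethanol lungs were above the other 9, and the difference of effects was -2.51 ± 0.63 (adjusted p = 0.0582). Nqo1, a quinone reductase, stood at 6.92, 17.6 and 19.4 CPM in ethanol lungs and between 2.43 and 7.91 in the other 9, with ethanol 12 inside that range. Ces1g, a carboxylesterase with close paralogs, stood at 8.67, 20.8 and 20.1 CPM in ethanol and 4.76, 1.72 and 4.19 in VEA 3.12 lungs, and its difference was -2.13 ± 0.54 (adjusted p = 0.0616). All 5 tested targets of the aryl hydrocarbon receptor had a negative difference, against 7492 of all 14727 genes, with a median of -2.02. Of the 5, 3 fell in the VEA arm, and 0 passed in the difference or between ethanol and saline. The median of the list was 1.44 for ethanol minus saline and -0.58 for VEA 3.12 minus PG 826 lungs, so the controls lay farther apart than the treated lungs. Their summed level was 115 to 183 CPM in ethanol and 99.1 to 104 in saline lungs, and 69.5 to 87.8 and 91.5 to 104 in VEA 3.12 and PG 826 lungs. In both Nqo1 and Ces1g the libraries ethanol 13 and 14 were the 2 highest of the 12.

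Other lists had positive medians with 0 members past the threshold in the difference. ER and integrated stress genes had a median of 0.66 over 15 tested members with 13 positive, interferon-stimulated genes 0.44 over 17 with 15 positive, and complement genes 0.49 over 15 with 5 higher in the VEA arm. Of all 14727 genes, 7235 had a positive difference. T and NK cell genes had a median of 0.49 over 14 tested members, and B cell and plasma cell genes 0.43 over 8. Cxcl9, an interferon-induced chemokine for T cells, stood at 0.691, 1.46 and 2.63 CPM in saline, 0, 0.0870 and 0.521 in PG 826, 3.51, 3.46 and 1.51 in ethanol and 3.62, 5.27 and 5.40 in VEA 3.12 lungs. The PG 826 lungs, with 6 counts in all, lay below the saline lungs, and the VEA lungs lay narrowly above the ethanol lungs. Neither arm passed, at -2.92 ± 0.88 for PG (adjusted p = 0.246) and 0.75 ± 0.62 for VEA (adjusted p = 0.567). The difference was 3.67 ± 1.08 (adjusted p = 0.141). Genes of tissues next to the lung parenchyma had negative medians and wide sums. Heart muscle genes had a median of -0.40, with summed levels of 273 to 389 CPM in saline, 163 to 243 in PG 826, 170.4 to 411 in ethanol and 81.7 to 191 in VEA 3.12 lungs. For adipocyte genes the median was -0.80, and the sums were 115 to 551 CPM in saline, 145 to 302 in PG 826, 260.0 to 447 in ethanol and 92.6 to 270.0 in VEA 3.12 lungs. Mesothelial genes had a median of -0.46 and sums of 100.1 to 135 CPM in saline, 67.9 to 114 in PG 826, 123 to 126 in ethanol and 62.1 to 77.0 in VEA 3.12 lungs. VEA and ethanol lungs overlapped in the first pair of lists and not in the mesothelial one.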
